A study of Mus musculus with 12 samples.

Results

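Glycogen storage and breakdown was followed here through 9 genes in the spinal cord of mice lacking Tardbp in Gfap-Cre cells: Gys1, Gyg, Gbe1 and Ugp2 of synthesis, Pygm and Pygb of breakdown, Phka1 and Phkb of the kinase that activates breakdown, and Ppp1r3c, which is not an enzyme but a targeting subunit of a phosphatase. The genes were listed by function, with earlier results of these data known. The only measured value in their selection is the mean level over the 12 mice, meant to pick 1 row where a symbol had several. Among the 9 only Pygm had several. Its 2 rows were identical, so the mean could not pick, and the row of ENSMUSG00000032648, present in the GENCODE annotation, was used. All 9 were found among the 36121 genes of the deposited table. Each had a mean of at least 1 TPM, the level required for testing, so none was lost to that filter. TPM (normalized transcript abundance) is a level scaled for transcript length and library, so levels of different genes can be set side by side.

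The 12 mice were 3-month-old C57BL6 animals, 4 in each of 3 groups, with 2 males and 2 females per group. Control mice had the genotype Tardbp-fl/fl and no Cre. The cHet mice were Gfap-Cre; Tardbp-fl/+ and the cKO mice were Gfap-Cre; Tardbp-fl/fl, so cHet differed from control in both the Cre and the number of floxed alleles. Cre is driven by the promoter of Gfap, an astrocyte gene, whereas RNA came from whole cord, so a value sums astrocytes and all other cells. In such bulk tissue fewer cells of a type and less RNA per cell cannot be told apart.

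Glycogen is a branched store of glucose, and in the central nervous system it is held mainly by astrocytes. Glycogenin starts a chain, glycogen synthase extends it with glucose from UDP-glucose, and the branching enzyme adds side chains. Glycogen phosphorylase, switched on by phosphorylase kinase, releases glucose phosphate again, and protein phosphatase 1 bound to glycogen turns synthesis on and breakdown off.

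Pygm, the muscle-type phosphorylase that astrocytes also make, and Ppp1r3c rose most in cKO, by 53.4% and 42.8% over control, and Phka1 rose by 17.3%. The synthesis genes and Pygb did not pass the test. Against cHet the same 3 genes rose, and no gene was called between cHet and control. Genes were compared with limma on log2(TPM + 0.5) over 15259 genes and called at a Benjamini-Hochberg adjusted p under 0.05. On this scale the changes of Pygm, Ppp1r3c and Phka1 from control were 0.62, 0.51 and 0.23 as deposited. With equal library totals they were 0.53, 0.42 and 0.14, and Phka1 was then not called. In cKO against control 3 of 9 genes rose and none fell, where 5.75% of all genes tested rose and 3.25% fell. The 4 cKO mice lay above all 4 control mice for 4 of the 9 genes (Pygm, Ppp1r3c, Phka1 and Ugp2), as they did for 10.5% of all genes. The median log2 change was 0.10 over the 9 genes and 0.01 over all genes. Because the genes were listed with results known, these counts are a description.

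**Figure D1:**
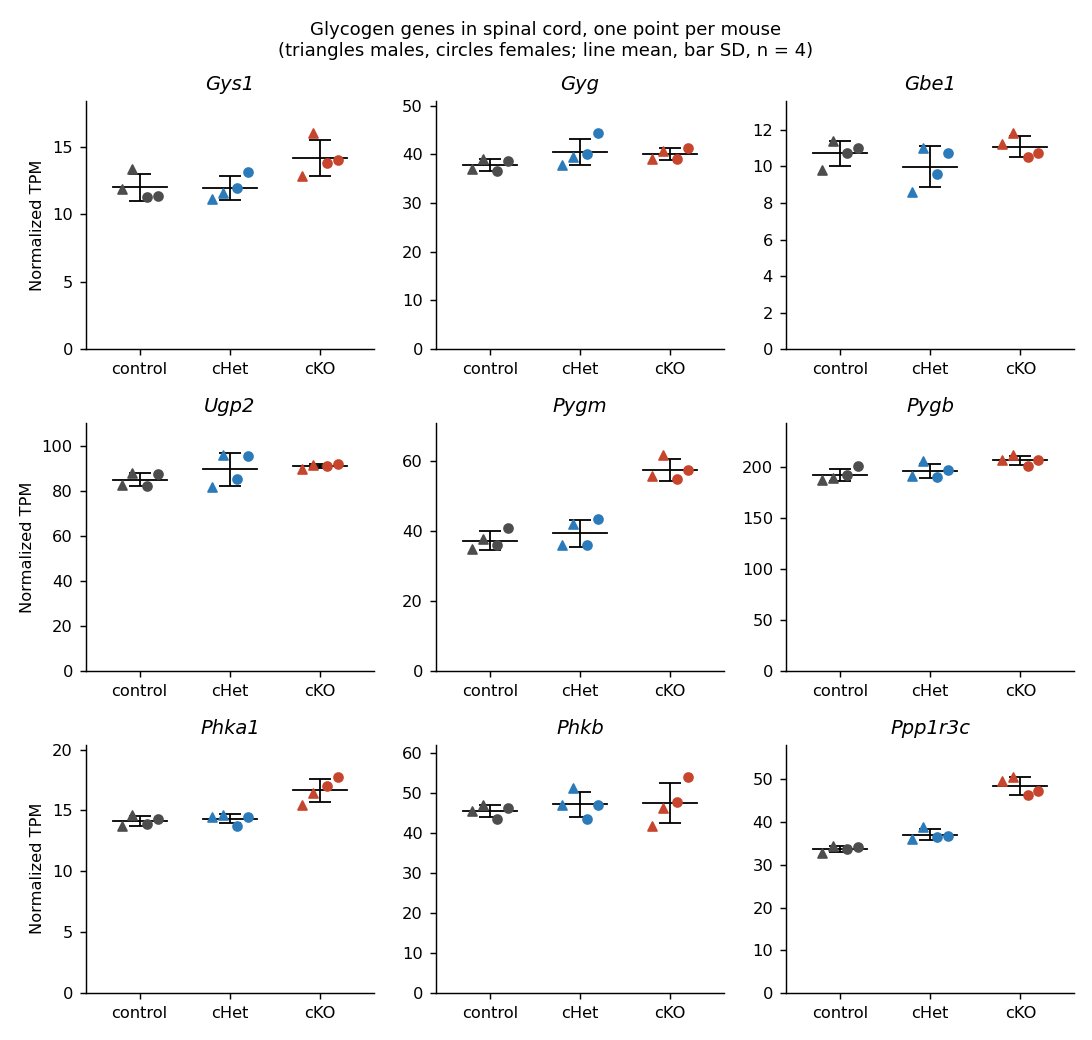
Normalized TPM (vertical axes, from 0) of the 9 glycogen genes in each mouse of the control, cHet and cKO groups, with triangles for males, circles for females, a line for the mean and a bar for the SD of 4 mice. The cKO mice stand above all other mice for Pygm (54.8 to 61.7 TPM), Ppp1r3c (46.3 to 50.6 TPM) and Phka1 (15.5 to 17.8 TPM), while the groups overlap for Gys1, Gyg, Gbe1, Pygb and Phkb.

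In control cord Pygb was the most abundant of the 9 genes at 192 ± 6.13 TPM (SD, n = 4). Ugp2 followed at 84.9 ± 2.99 TPM, Phkb at 45.5 ± 1.49, Gyg at 37.8 ± 1.27, Pygm at 37.3 ± 2.63 and Ppp1r3c at 33.8 ± 0.688 TPM. The lowest were Phka1 at 14.1 ± 0.400, Gys1 at 12.001 ± 0.969 and Gbe1 at 10.7 ± 0.676 TPM. Neighbours in this order overlapped between mice for Gyg and Pygm and for Gys1 and Gbe1. The place of Pygm is uncertain, because the deposited table holds its values 2 times: the rows of ENSMUSG00000032648 and of another identifier with the same symbol differ by 0.0 TPM in every mouse. If reads were divided evenly between identical copies, the level of Pygm would be the sum of both rows. Ratios between groups are the same either way.

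Pygm (ENSMUSG00000032648; GRCm38 chromosome 19, 6384399 to 6398459, plus strand) encodes the phosphorylase named for muscle. Its level was 37.6, 34.8, 40.8 and 35.9 TPM in the 4 control mice and 35.9, 42.0, 35.9 and 43.4 TPM in the cHet mice. In cKO it was 54.8, 55.7, 57.5 and 61.7 TPM. All cKO mice were above all others, and control and cHet mice overlapped. The log2 change of cKO from control was 0.62 ± 0.07 (SE; limma adjusted p = 0.000323; exact permutation p = 0.0286, the smallest that 4 against 4 allows). Against cHet it was 0.54 ± 0.07 (limma adjusted p = 0.000941). For cHet against control it was 0.07, with a 95% interval from -0.08 to 0.23 (limma adjusted p = 0.759). All 19 alternative analyses of each cKO comparison kept both calls. The lowest log2 change among them was 0.53 against control and 0.50 against cHet.

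Pygb (chromosome 2, 150786735 to 150831758, plus strand), the brain-type phosphorylase, had 187, 189, 200.6 and 192 TPM in control and 191, 205, 197 and 189.7 TPM in cHet. The cKO mice had 200.4, 207, 207 and 211 TPM. The lowest cKO mouse was just under the highest control mouse, so the groups overlapped. The log2 difference from control was 0.10, with a 95% interval from 0.03 to 0.18 (limma adjusted p = 0.0760). In the authors' deposited table for this pair Pygb had a likelihood ratio q of 0.0422, so the tools differ over this gene. After each library was scaled to the same total, its log2 difference was 0.01.

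The isoform make-up of the phosphorylases can be read from these levels. Pygl, the liver-type phosphorylase, was a minor form. Control mice had 4.61 ± 0.969 TPM of it and cKO mice 3.67 ± 0.677 (SD, n = 4; limma adjusted p = 0.386). Pygm made up 16.4%, 15.2%, 16.7% and 15.4% of the summed TPM of Pygm, Pygb and Pygl in control mice. In cHet the shares were 15.5%, 16.8%, 15.1% and 18.3%, and in cKO they were 21.2%, 20.9%, 21.5% and 22.3%. With both Pygm rows summed the mean shares of the control, cHet and cKO groups were 27.5%, 28.2% and 35.3%. The 3 genes summed to 234 ± 7.65 TPM in control mice, to 239 ± 8.39 with cHet and to 267 ± 7.69 with cKO (SD, n = 4). These sums leave out the second Pygm row. They were not rescaled, although library totals were also highest in cKO and lowest in control. Mature transcripts of Pygm share 1.32% of their stretches of 31 bases with Pygb and 0 with Pygl in the GENCODE annotation, so few stretches of that length fit both paralogs.

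Phka1 (chromosome X, 102513975 to 102644246, minus strand) encodes the muscle-type alpha subunit, a regulatory part of phosphorylase kinase. Control mice had 13.7, 14.6, 14.3 and 13.9 TPM, cHet mice 14.6, 14.5, 13.8 and 14.4 TPM, and cKO mice 17.0, 15.5, 17.8 and 16.4 TPM. Every cKO mouse was above every other mouse, with the nearest at 15.5 and 14.6 TPM. The log2 change was 0.23 ± 0.05 against control (SE; limma adjusted p = 0.0120) and 0.21 ± 0.05 against cHet (limma adjusted p = 0.0252). Both calls depended on the scaling: with equal library totals the adjusted p was 0.107 against control and 0.0899 against cHet, and after scaling without mitochondrially encoded genes it was 0.0502 against control. Against cHet the call was also lost without cHet replicate 2 (limma adjusted p = 0.0502) or 3 (0.0734), without cKO replicate 1 (0.0699), 3 (0.0728) or 4 (0.0556), and with only these 8 mice in the fit (0.0740).

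Phkb (chromosome 8, 85840959 to 86061376, plus strand), the beta subunit gene, was spread widely within cKO. Its level there was 47.7, 46.2, 54.0 and 41.8 TPM, against 46.9, 45.5, 43.4 and 46.1 TPM in control and 51.2, 46.9, 43.5 and 47.0 TPM in cHet. The lowest and the highest of the 12 mice were both cKO. The log2 difference of cKO from control was 0.05, with a 95% interval from -0.10 to 0.21 (limma adjusted p = 0.718). The liver-type alpha subunit gene Phka2 had means of 18.9 ± 2.81, 12.9 ± 4.57 and 15.6 ± 1.32 TPM in the control, cHet and cKO groups (SD, n = 4; limma adjusted p = 0.468 between control and cKO). Among the cHet mice Phka2 ranged from 8.32 to 19.2 TPM. The catalytic subunit genes Phkg1 and Phkg2 had 33.7 ± 2.89 and 60.4 ± 3.56 TPM in control mice. They had 31.4 ± 2.90 and 63.3 ± 2.31 TPM in cKO mice, and neither was called.

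Ppp1r3c (chromosome 19, 36731731 to 36736653, minus strand) encodes the subunit also known as protein targeting to glycogen, which brings protein phosphatase 1 to the particle and so favours storage. The 4 control mice had 34.4, 32.9, 34.2 and 33.6 TPM, the cHet mice 36.1, 39.0, 36.7 and 36.6 TPM and the cKO mice 46.3, 49.7, 47.3 and 50.6 TPM. The 3 groups did not overlap, with control lowest and cKO highest. The log2 change was 0.51 ± 0.04 against control (SE; limma adjusted p = 1.53e-05) and 0.38 ± 0.04 against cHet (limma adjusted p = 0.000188). All 19 alternatives of each comparison kept these calls. For cHet against control the log2 difference was 0.13 ± 0.04, with a 95% interval from 0.05 to 0.22. It was not called (unadjusted p = 0.00474, limma adjusted p = 0.255), although the exact permutation p of this single gene was 0.0286, the smallest possible. Over 19 alternatives this difference ran from 0.080 to 0.15, and none called it. The 4 cHet mice lay above the 4 control mice for 4.12% of all genes, and among the 9 for this gene alone.

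Of the other targeting subunits, Ppp1r3e had 34.6 ± 1.02 TPM in control mice and 31.4 ± 1.59 in cKO mice (SD, n = 4) and was not called. Ppp1r3d and Ppp1r3f were not called either. Ppp1r3b was too low to be tested, with means of 0.465 ± 0.123, 0.476 ± 0.0875 and 0.846 ± 0.111 TPM in the control, cHet and cKO groups. Its lowest cKO mouse had 0.767 TPM, above the highest control mouse (0.605) and the highest cHet mouse (0.588). Ppp1r3g had means of 2.34 ± 0.254, 3.24 ± 1.41 and 1.41 ± 0.428 TPM in the control, cHet and cKO groups. It fell in cKO against cHet, by 0.93 ± 0.24 on the log2 scale (SE; limma adjusted p = 0.0442), and 8 of 18 alternatives did not call it. The highest cHet mouse had 5.21 TPM, and without it (cHet replicate 4) the adjusted p was 0.0763. The share of Ppp1r3c in the summed TPM of the 7 targeting subunit genes was 33.8% ± 0.691 for control mice, 36.2% ± 1.08 for cHet and 43.6% ± 0.575 for cKO (SD, n = 4).

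**Figure D2:**
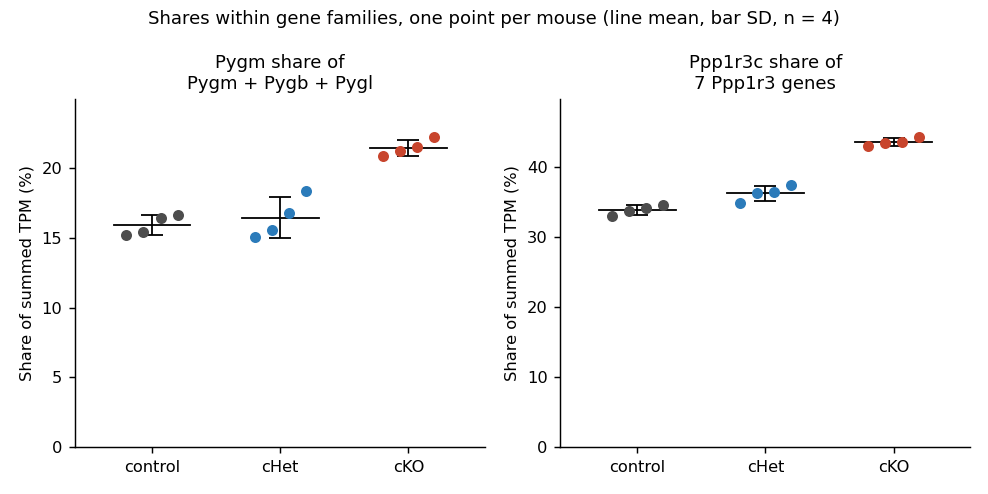
Share of Pygm in the summed TPM of 3 phosphorylase genes (left) and of Ppp1r3c in that of 7 targeting subunit genes (right), in percent from 0, one point per mouse with the mean (line) and SD (bar) of 4 mice. The cKO mice lie between 20.9% and 22.3% for Pygm and between 43.0% and 44.3% for Ppp1r3c, above all control and cHet mice.

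Gys1 (chromosome 7, 45434844 to 45456619, plus strand), the glycogen synthase of muscle and brain, was at 13.4, 11.9, 11.4 and 11.3 TPM in control and 11.6, 11.2, 11.99 and 13.2 TPM in cHet. The cKO mice had 14.0, 12.8, 13.8 and 16.0 TPM, with 1 of them below the highest control mouse. The log2 difference from control was 0.23 ± 0.08 (SE), as large as that of Phka1 but with a wider spread, and its 95% interval ran from 0.06 to 0.40 (limma adjusted p = 0.0930). None of 19 alternatives called it (adjusted p from 0.0541 to 0.260). Against cHet the log2 difference was likewise 0.23 (limma adjusted p = 0.125).

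Gyg (chromosome 3, 20122084 to 20155317, minus strand) encodes glycogenin, the primer of new chains. Control mice ranged from 36.5 to 39.1 TPM, cHet mice from 37.9 to 44.3 and cKO mice from 39.0 to 41.3, with overlap throughout. The log2 difference from control was 0.08 in cKO and 0.09 in cHet (limma adjusted p = 0.359 and 0.492), with upper 95% limits of 0.18 and 0.20.

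Ugp2 (chromosome 11, 21321138 to 21371201, minus strand) makes UDP-glucose, the substrate of the synthase. The cKO mice were close together, at 90.8, 91.3, 91.8 and 89.8 TPM, and all above the control mice at 87.7, 82.4, 82.2 and 87.3 TPM. The cHet mice spanned both, at 81.5, 95.8, 95.2 and 85.4 TPM. The log2 difference of cKO from control was 0.10, with a 95% interval from -0.01 to 0.21 (limma adjusted p = 0.268), and it was 0.0061 with equal library totals.

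Gbe1 (chromosome 16, 70313949 to 70569716, plus strand), the branching enzyme gene, ranged from 9.79 to 11.4 TPM among control mice, 8.58 to 11.0 among cHet and 10.5 to 11.8 among cKO. The groups overlapped, and the log2 difference of cKO from control was 0.05, with a 95% interval from -0.13 to 0.22 (limma adjusted p = 0.801). As deposited, all 9 genes had a log2 difference above 0 in cKO against control, but with equal library totals those of Gbe1, Gyg and Phkb were below 0, and that of Gbe1 also after scaling without mitochondrially encoded genes.

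Between cKO and cHet, both of which carry Cre, 3 of 9 genes rose (Pygm, Ppp1r3c and Phka1) and none fell, where 2.41% of all genes rose and 2.61% fell. The same 3 had no overlap between groups, as 6.14% of all genes had in that direction. The median log2 difference was 0.15 over the 9 genes and 0.0049 over all genes. This comparison and that with control share the cKO mice. Between cHet and control limma called none of the 9 and 0% of all genes. At an unadjusted limma p under 0.05 was 1 of the 9, Ppp1r3c, and 11.3% of all genes. The median log2 difference was 0.05 over the 9 genes and 0.01 over all genes.

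**Figure D3:**
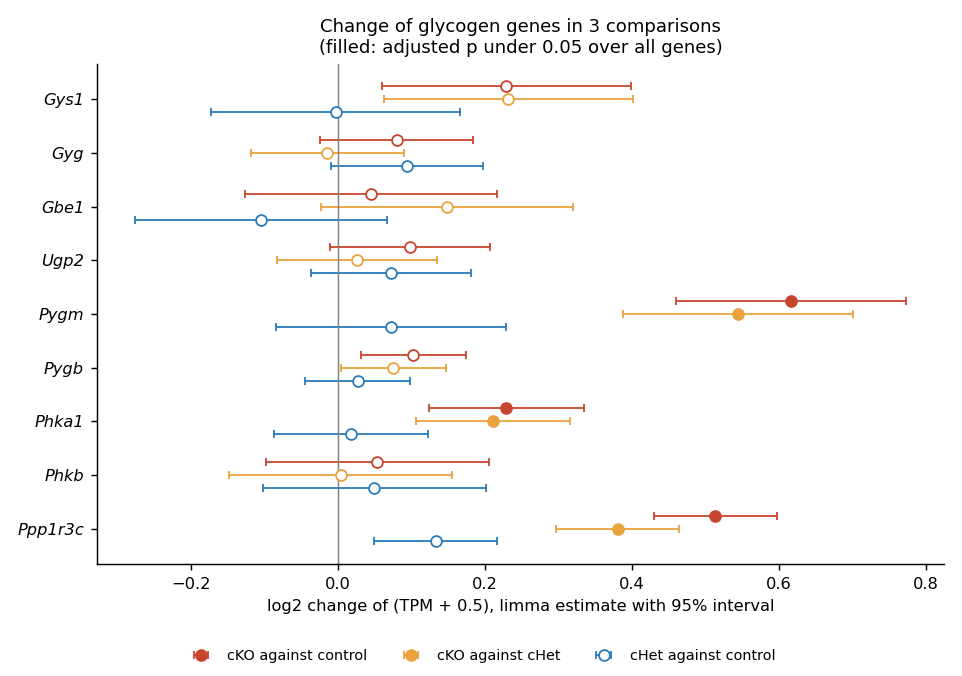
Log2 change of (TPM + 0.5), with the limma estimate as a point and its 95% interval as a bar, for the 9 glycogen genes in 3 comparisons, filled where the adjusted p over all genes was under 0.05. Filled points are those of Pygm, Phka1 and Ppp1r3c against control (0.62, 0.23 and 0.51) and against cHet (0.54, 0.21 and 0.38), and no point of cHet against control is filled.

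For the 3 called genes the size of the cKO change was also read within each sex, with 2 mice per sex and group. All cKO mice lay above all control mice for these 3 genes. A rise in both sexes was therefore fixed in advance and adds no support. The log2 change from control was 0.69 in males and 0.54 in females for Pygm, 0.57 and 0.46 for Ppp1r3c, and 0.16 and 0.30 for Phka1. The limma interaction of sex and genotype called none of the 9 genes, and its count over all genes is not given here. With 2 mice per sex and group it cannot show that the sexes respond alike. Among the 9, the smallest unadjusted p of this interaction for cKO against control was 0.0531, that of Phkb (adjusted p = 0.9996). Its log2 difference was -0.07 in males and 0.18 in females.

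The rest of glycogen metabolism and its control was counted over 51 further genes, of which 47 were tested. In cKO against control 2 rose, Prkaca and Adrb1, and none fell, where 5.75% of all genes tested rose and 3.25% fell. Their median log2 change was 0.04, with a range from -0.59 to 0.32. A count of 2 of 47 is near the share over all genes. Prkaca, a catalytic subunit of protein kinase A, which activates phosphorylase kinase, was at 238, 237, 233 and 232 TPM in control and 253, 262, 256 and 271 TPM in cKO. Its log2 change was 0.15 ± 0.03 (SE; limma adjusted p = 0.00843), and the call was lost with equal library totals (0.180) and after scaling without mitochondrially encoded genes (0.0648). Adrb1, the beta-1 adrenergic receptor gene, was at 3.55, 3.28, 3.28 and 3.36 TPM in control and 4.03, 4.70, 4.94 and 3.78 TPM in cKO (limma adjusted p = 0.0448). In 13 of 18 alternatives it was not called, among them those leaving out any control mouse (0.0652 to 0.107) or cKO replicate 1, 2 or 3 (0.0551, 0.126 and 0.124). All 3 rescalings also ended it, with adjusted p = 0.0539 by median of ratios, 0.0979 with equal library totals and 0.0777 without mitochondrially encoded genes.

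By role, 0 of 7 tested genes of synthesis and glucose phosphate supply were called in cKO against control, 0 of 9 of breakdown, 0 of 7 phosphatase subunits and 0 of 3 of glycogen quality control. The kinases had 1 of 10 higher, the adrenergic receptors 1 of 5 higher, and 0 of 6 genes that use UDP-glucose or its products were called. Nhlrc1, whose ubiquitin ligase malin acts on glycogen enzymes, had 7.65 ± 0.820 TPM among control and 9.66 ± 0.356 among cKO mice (SD, n = 4; limma adjusted p = 0.0627).

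Against cHet, Adrb1 rose by 0.39 ± 0.09 on the log2 scale (SE; limma adjusted p = 0.0263), but 6 of 18 alternatives did not call it. Ugt8a, which transfers galactose made from UDP-glucose onto myelin lipids, fell by 0.37 ± 0.09 (SE; limma adjusted p = 0.0438), but 10 of 19 alternatives did not call it. It was at 122, 133, 142 and 165 TPM in cHet and 102, 113, 121 and 97.2 TPM in cKO. The fall of Ugt8a went with that of mature oligodendrocyte genes, of which 9 of 10 fell in cKO against cHet, where 2.61% of all genes fell. The part of these cells in the fall of Ugt8a was not tested.

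**Figure D4:**
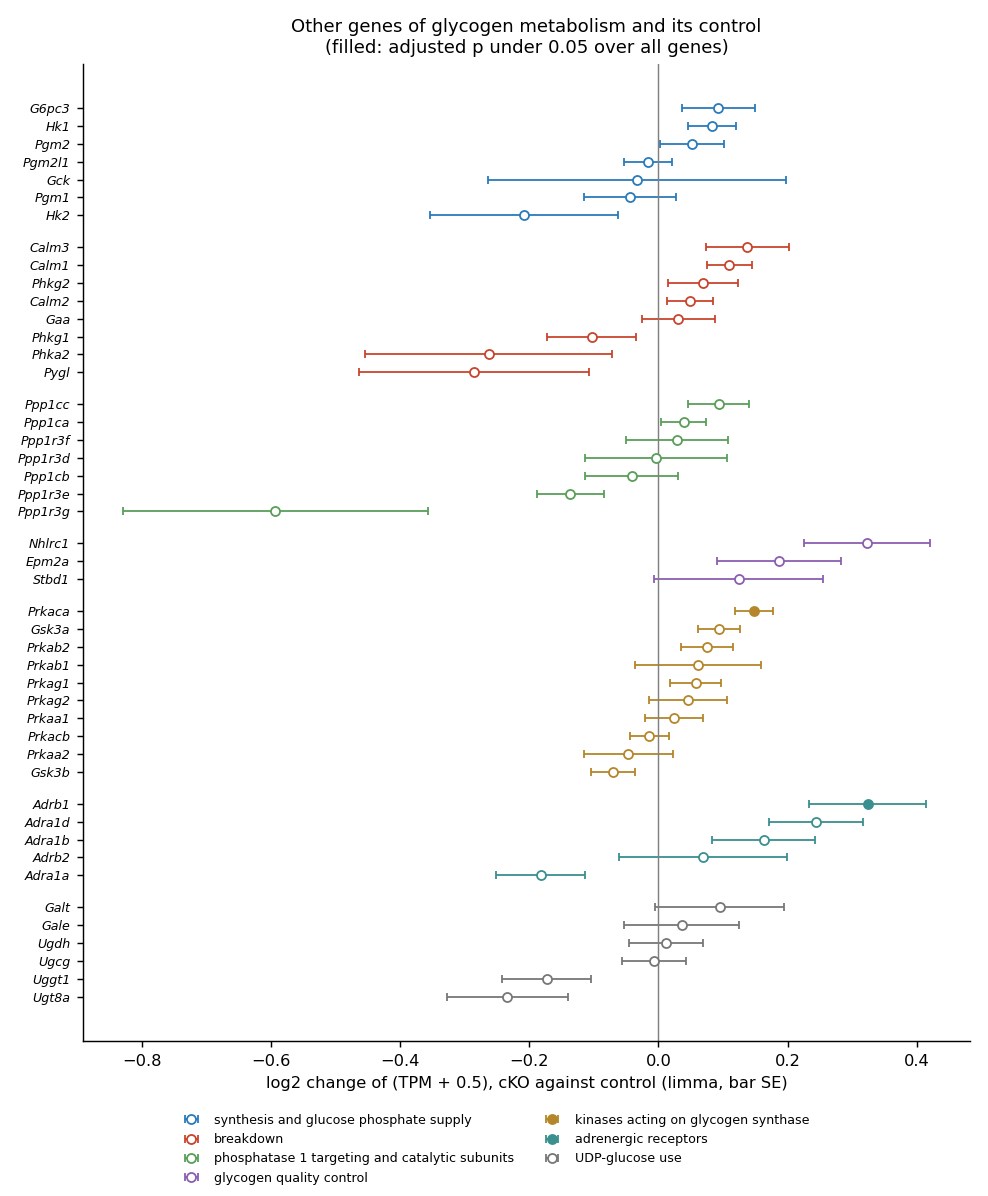
Log2 change of (TPM + 0.5) in cKO against control for tested genes outside the 9, grouped by role, with the limma estimate as a point and its SE as a bar. Only Prkaca and Adrb1 are filled (adjusted p under 0.05), and the values run from -0.59 for Ppp1r3g to 0.32 for Adrb1.

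Markers of the cells of the cord were read beside these results. Summed TPM of 12 astrocyte genes ran from 4273 to 4488 among control mice, 4419 to 4625 among cHet and 4949.6 to 5350.4 among cKO, with 4 genes higher and 2 lower in cKO against control. Summed TPM of 7 microglia genes ran from 187 to 196 among control mice, 188 to 205 among cHet and 231 to 247 among cKO (5 of 7 higher). That of 10 mature oligodendrocyte genes was 21181 to 22172, 21200.4 to 25136 and 17586 to 20034 (7 of 10 lower). Neuron genes summed to 3049.8 to 3238 TPM among control mice, 3152 to 3362 among cHet and 3262 to 3447 among cKO (3 of 8 higher). These counts are of limma calls in cKO against control, where 5.75% of all genes tested rose and 3.25% fell. No gene of these 4 lists was at 0 in all mice. In cKO the astrocyte and microglia sums were above, and the oligodendrocyte sum below, those of all control and cHet mice. The astrocyte sum is weighted to its most abundant genes. Mean Gfap was 1175 TPM in control and 1391 in cKO, and mean Aldoc 1229 and 1560 TPM. Slc1a3 (45.7 and 30.2 TPM), Gja1 (190 and 159 TPM) and Fgfr3 (103 and 98.6 TPM) had lower means in cKO, and all other astrocyte genes listed had higher ones. The neuron sum was above all control mice, but its cKO and cHet mice overlapped. All these sums and counts are of the deposited values and were not rescaled, although library totals also differed between the groups. The mean neuron sum was 3116 TPM in control and 3331 in cKO mice, and the mean library total was 967165 and 1031670 TPM. The part of these cells in the changes of Pygm, Ppp1r3c and Phka1 was not tested. Since Pygm is also the phosphorylase of skeletal muscle, 11 muscle genes were checked. Ckm, Acta1, Myh4 and Atp2a1 had means of at most 1.11 TPM in every group, and 0 of the 3 tested muscle genes were called. Pvalb, which neurons also express, had 229 TPM on average among control and 247 among cKO mice, and Mylpf 21.5 and 21.8 TPM.

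The summed normalized TPM of a library ran from 954895 to 1048381, and it was highest in cKO (1017855 to 1048381) and lowest in control (954895 to 978621), with cHet at 983452 to 1023987. The scale of the deposited values therefore differs between the groups. Over all genes limma called 878 higher and 496 lower in cKO against control. That was 699 and 575 after median-of-ratios rescaling, 352 and 1666 with equal library totals and 467 and 813 after scaling without mitochondrially encoded genes. For cKO against cHet, 367 higher and 398 lower became 253 and 660 with equal totals.

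Genes of the most similar pattern were listed for each called gene, by the root mean square difference over the 12 mice of log2 values centred on control. Over 11317 genes compared with Pygm, the nearest were Atp1b2, a sodium pump subunit gene (0.0964), Ppp1r1b (0.103), Ppp1r3c itself (0.105), the complement gene C1qa (0.106) and Prkcd (0.108). For Ppp1r3c they were Ramp1 (0.0553), the complement gene C1qb (0.0602), Thrsp (0.0736), Pfkm, the muscle-type phosphofructokinase gene (0.0739), and B2m (0.0771), with Pygm at rank 28. Phka1 was nearest to Ctsb (0.0546), Pbxip1 (0.0546), Cdh22 (0.0554) and Cisd3 (0.0557), differences that are small because the change itself is small. From Phka1, Ppp1r3c was at rank 7151 and Pygm at rank 9376 of 11318 genes. In the other direction, Phka1 was at rank 383 of 11317 genes from Pygm and at rank 458 of 11318 from Ppp1r3c. The measure depends on the size of a change as well as its pattern, so the ranks do not compare pattern alone. Mean Pfkm levels were 241, 249 and 328 TPM for the control, cHet and cKO groups.

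Promoter windows are shown for the 3 genes that rose in cKO. Each runs from 250 bases before the RefSeq start site to 50 after it (GRCm38.p6), 5′ to 3′ on the strand of the gene. Capitals mark matches on either strand to 6 motifs. These are the cAMP response element (TGACGTCA) with its shorter form TGACG, and ACGTG, the core of hypoxia response elements. CACGTG is an E-box and contains the hypoxia core. TATAAA is the TATA box. The last is the CCAAT box. Pygm lies at chr19:6384158-6384457 (plus strand), Ppp1r3c at chr19:36736555-36736854 (minus strand) and Phka1 at chrX:102644197-102644496 (minus strand).
Pygm: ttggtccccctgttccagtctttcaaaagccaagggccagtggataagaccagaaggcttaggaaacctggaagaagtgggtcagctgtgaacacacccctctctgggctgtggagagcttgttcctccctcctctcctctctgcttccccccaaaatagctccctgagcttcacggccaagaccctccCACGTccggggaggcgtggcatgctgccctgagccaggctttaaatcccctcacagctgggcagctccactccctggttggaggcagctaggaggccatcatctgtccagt
Ppp1r3c: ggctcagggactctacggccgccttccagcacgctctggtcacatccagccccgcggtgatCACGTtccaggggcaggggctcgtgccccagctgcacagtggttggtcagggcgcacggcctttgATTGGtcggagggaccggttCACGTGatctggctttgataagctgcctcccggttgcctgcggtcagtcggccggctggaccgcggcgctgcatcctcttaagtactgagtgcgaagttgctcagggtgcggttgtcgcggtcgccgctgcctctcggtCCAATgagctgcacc
Phka1: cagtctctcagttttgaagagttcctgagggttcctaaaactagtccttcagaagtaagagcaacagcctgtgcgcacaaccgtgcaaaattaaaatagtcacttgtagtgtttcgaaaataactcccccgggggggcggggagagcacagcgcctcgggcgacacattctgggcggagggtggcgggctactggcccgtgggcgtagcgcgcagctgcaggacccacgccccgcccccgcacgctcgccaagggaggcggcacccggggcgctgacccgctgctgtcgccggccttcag

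The Pygm window held ACGTG at 1 place and the Ppp1r3c window at 2 places, of which 1 was the E-box CACGTG. The Ppp1r3c window also held CCAAT at 2 places, and the Phka1 window held none of the 6 motifs. Over the 9 genes, with 10 windows because Ugp2 has 2 start sites, ACGTG was present in 5 windows, against 19.6% of 32817 windows of all genes. CACGTG was in 2 of 10 (7.15% of all), TGACG in 3 of 10 (20.8%) and CCAAT in 3 of 10 (37.4%). TGACGTCA and TATAAA were in 0 of 10 (1.79% and 13.6% of all). GC content was 58.7% for Pygm, 65.3% for Ppp1r3c and 62.7% for Phka1, against a median of 52.7% over all windows. A match is a run of letters and not a measured binding site.

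TDP-43, the protein of Tardbp, is known to bind UG repeats in RNA, so the mature transcripts were also searched. A run of 4 such units (TGTGTGTG in DNA letters) was present in annotated protein-coding transcripts of 2 of the 9 genes, Pygb and Phka1, against 23.5% of 21901 protein-coding genes. Phka1 held its longest run, 11 bases, in a transcript of 6115 bases, and all 6 of its transcripts had the repeat. Pygm and Ppp1r3c had no run over 5 bases. Binding was not measured, and the part of such repeats in the changes was not tested. Introns, where much binding of this protein takes place, were not searched.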

How the data were processed

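RNA of whole spinal cord from 12 mice was sequenced. Per the labels' protocols, cords were flash frozen, RNA was prepared with Trizol, and a TruSeq kit gave the libraries. The submitters' processing notes name kallisto 0.44.0, sleuth 0.30.0 and GRCm38. The transcript annotation that the authors used is not given in the sources read. The authors deposited normalized TPM per gene, a signal that is never negative and whose library totals differ. TPM keeps no read depth, so depth is unknown and no counting interval is given. Per the file headers, the authors' deposited tables of group pairs hold p-values and q-values of a likelihood ratio and a Wald test and an effect score, used here for its sign alone.

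The 15259 rows averaging 1 TPM or more were fitted on log2(TPM + 0.5), a scale that understates changes of low genes, with limma 3.58.1 in R 4.3.3. All 12 mice entered the fit (eBayes with trend, no covariate, two-sided), with Benjamini-Hochberg adjustment over all genes within a comparison. The limma step was tested on simulated data. Single genes were also compared by a two-sided exact permutation test of mean TPM over the 70 assignments of 8 mice. Each mouse is its own library, and the labels name no batch or litter. Mouse numbers in the text follow the order of the samples.

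The 9 genes, the lists of other glycogen genes and of cell markers, and the tests were chosen with earlier results of these data known. The rule was to describe all 9 genes, Pygl, any other listed gene called in a comparison, and for each of the 9 called in cKO against control the 5 genes of nearest pattern with a mean of at least 5 TPM. Some genes that this rule names are not reported here. Ppp1r3b, Ppp1r3d, Ppp1r3e, Ppp1r3f, Nhlrc1, Phka2, Phkg1 and Phkg2 were added after their values were seen. Coordinates are from GENCODE M21 (GRCm38), and promoter sequences from RefSeq (GRCm38.p6), in which all 9 symbols matched. Python 3.11.15 was used for summaries.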

Additional observations from a re-analysis of the deposited data

How the results depend on the processing

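No paired analysis was possible because the labels give no replicate number or litter that joins mice of different groups. Each comparison was refitted with other pseudocounts (0.1 and 1), filters, scalings, samples and variance models, with sex as a covariate, with rows of a symbol summed and without each mouse. Over all genes, leaving out a mouse gave 814 to 1143 calls for cKO against control, of which 907 were without control replicate 2, 814 without cKO replicate 2 and 890.0 without cKO replicate 4, 532 to 715 for cKO against cHet and 0 to 1 for cHet against control. Without a filter on low values the last was 2. Of the 9 genes, 3 stayed called in cKO against control without any 1 mouse, and 2 with either equal-total scaling. Over all genes tested, 352 rose with equal library totals and 467 after scaling without mitochondrially encoded genes, against 878 as deposited. Without 1 mouse the mean Pygm share was 15.7% to 16.2% in control, 15.8% to 16.9% in cHet and 21.2% to 21.7% in cKO, and with its rows summed it was 27.5%, 28.2% and 35.3% in control, cHet and cKO.

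Signs turned only for differences that were not called. With equal library totals the log2 difference from control was -0.044 for Gbe1, -0.011 for Gyg and -0.039 for Phkb in cKO, and -0.024 for Pygb, -0.031 for Phka1 and -0.0014 for Phkb in cHet. Against cHet it was -0.015 for Ugp2 and -0.037 for Phkb in cKO. After scaling without mitochondrially encoded genes it was -0.0055 for Gbe1 in cKO, and -0.026, -0.034 and -0.0035 for Pygb, Phka1 and Phkb in cHet, all against control. Median-of-ratios rescaling gave -0.0018 for Phkb in cKO against cHet. Leaving out 1 mouse gave -0.010 to 0.11 for Phkb in cKO against control and -0.048 to 0.049 for Gys1 in cHet against control. In cKO against cHet it gave -0.017 to 0.060 for Ugp2, -0.044 to 0.030 for Gyg, -0.060 to 0.062 for Phkb and -0.16 to 0.080 for Pygl. The cause was not tested, and unknown depth limits what can be said of Pygl, Ppp1r3b and Ppp1r3g.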
